A study of Mus musculus with 27 samples.

Results

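Tumors grown from CT26 cells that lacked either enzyme of the m6A writer pair, Mettl3 or Mettl14, were compared as 1 class with tumors from control cells. The members are samples: 5 Mettl3 KO and 5 Mettl14 KO RNA-seq libraries, 10 in all, set against 5 control libraries, which makes 15 of the 27 samples of the series. They were chosen by their titles alone, and no measured value entered the choice. The other 12 samples are m6A immunoprecipitation libraries and their inputs and were not analysed here.

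CT26 is a mouse colon carcinoma line. The cells received a guide RNA against Mettl3, a guide RNA against Mettl14 or a control guide by retrovirus, and were placed with Matrigel under the skin of BALB/c mice. All 3 groups are described as tumors under anti-PD-1, an antibody that blocks a checkpoint receptor on T cells, by the series design. The protocols list 200 µg (10 mg/kg) antibody doses from day 11 to day 23 and also name anti-CTLA-4 and IgG, without tying either to a sample. The edit is limited to the CT26 cells, so every tumor also held unedited host vessels, stroma and immune cells. The labels do not say which samples came from separate mice, so p-values measure only the spread between these samples. The genotype field of the Mettl14 samples reads Mettl4, and the titles were followed.

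Mettl3 and Mettl14 work as a heterodimer that adds a methyl group to adenosines in messenger RNA, and Mettl3 is the catalytic partner. Transcripts that carry this mark, m6A, are recognised by reader proteins that change their stability or translation. Interferon-gamma, made mainly by T cells and natural killer cells, acts through a receptor on nearly all cells, and its target genes encode guanylate-binding proteins, immunity-related GTPases, antigen presentation proteins and chemokines that attract T cells. In a tumor such targets can be expressed by the cancer cells and by the host cells alike.

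The libraries held 4.35 to 20.98 M reads on genes (M for mega), and of the reads assigned to a gene or to no gene, 44.3% to 78.6% lay outside genes. Control replicate 1 stood apart from its group with 78.6% outside genes, where the other 4 controls had 44.3% to 53.8%. The knockouts had 8.58 M gene reads on average and the controls 14.2 M (exact permutation test, two-sided p = 0.0420, adjusted over 5 library measures 0.0699), with 63.4% and 54.8% of reads outside genes (p = 0.143, adjusted 0.179). Control replicates 2 and 3 had the highest shares of mitochondrial reads, 8.85% and 6.93%, and the highest levels of small nuclear and nucleolar RNA. Leaving out control replicate 1 raised the number of genes called (adjusted p under 0.05 by edgeR's quasi-likelihood test, Benjamini-Hochberg over all genes tested) from 87 higher and 54 lower to 8516 higher and 4330 lower. Leaving out control replicate 2 lowered it to 0 and 0 with edgeR, with 2672 genes at an unadjusted p under 0.05 (0 of the 45 named and called genes kept their call, and 0 changed direction). The calls below therefore depend on which controls are included, and the cause was not tested.

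The targeted genes came first. Mettl3 was counted at 13.5, 21.3, 19.6, 20.3 and 22.9 CPM (reads per M gene reads, on the TMM scale common to all libraries) in control replicates 1 to 5. In Mettl3 KO replicates 1 to 5 it was at 13.6, 16.3, 12.5, 13.3 and 13.5 CPM, and in the Mettl14 KO at 17.3, 15.1, 17.8, 19.8 and 15.8 CPM. The groups overlapped, and the log2 change was -0.34 (SE 0.13, adjusted p = 0.178). Mettl14 stood at 67.8, 89.8, 66.5, 61.5 and 61.7 CPM in controls, 37.7, 70.6, 56.2, 39.3 and 70.6 CPM in Mettl3 KO and 58.5, 52.9, 80.0, 49.1 and 67.6 CPM in Mettl14 KO tumors, again overlapping, with a log2 change of -0.25 (SE 0.17, adjusted p = 0.417). These log2 changes are means over both knockouts. Mettl3 changed by -0.50 in Mettl3 KO and by -0.19 in Mettl14 KO. Mettl14 changed by -0.17 in Mettl14 KO and by -0.34 in Mettl3 KO. Both transcripts remained countable in every library. Whether they came from edited transcripts or from host cells was not tested, so these levels do not check the labels. Of 21 m6A writers, erasers and readers tested, 0 were called in either direction by edgeR and 8 had an unadjusted p under 0.05, a level that 4742 of all 24566 genes tested (19.3%) reached. Their median log2 fold change was -0.27 (Mettl3 KO -0.44, Mettl14 KO -0.15), beside 0.05 for all 24566 genes tested.

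Averaged over both knockouts, 141 of 24566 genes tested (0.574%) differed from control, 87 higher (0.354%) and 54 lower (0.22%). Protein-coding genes made up 77 of the 87 and 32 of the 54. Each of the 141 had the same sign in both knockouts. They were called on the mean of the 2 effects, which share their 5 controls, so the equal sign is largely fixed by that choice. The 87 genes that rose had a median log2 fold change of 1.63, with 1.49 for the Mettl3 effect and 1.74 for the Mettl14 effect. The 54 that fell had a median of -1.18, with -1.50 and -0.93. In the same fit, each knockout on its own against the shared controls gave 17 higher (0.0692%) and 25 lower (0.102%) for Mettl3, and 48 higher (0.195%) and 2 lower (0.00814%) for Mettl14; the 2 were Eya1 and the gene model Gm42680. Under another scaling the split moved: 80 higher and 98 lower with DESeq2's size factors, and 125 higher and 27 lower with plain library totals. With the share of reads outside genes as a covariate 54 were higher and 16 lower, and DESeq2 called 578 and 1956. In 66 genes (0.269% of those tested) all 10 knockout libraries lay above all 5 controls, and 29 of these were among the 87. In 44 genes (0.179%) all 10 lay below, and 12 of these were among the 54.

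**Figure D1:**
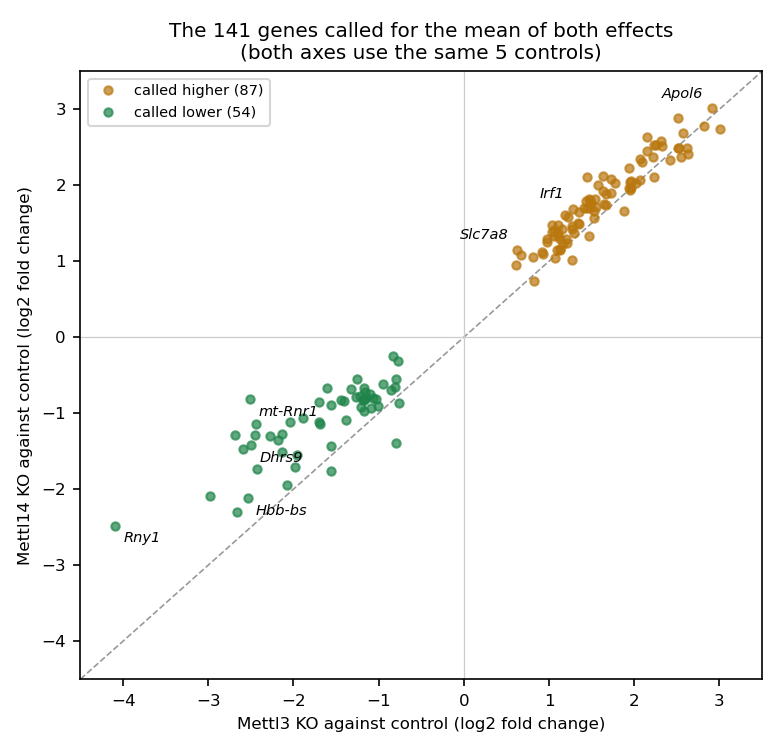
Log2 fold change against control in Mettl3 KO tumors (x axis) and Mettl14 KO tumors (y axis) of the 141 genes called for the mean of both effects, 87 higher and 54 lower; the dashed line marks equal change and both axes use the same 5 controls. Because the genes were called on the mean of the 2 effects, points in the quadrants of equal sign follow largely from that choice; 16 of 87 rises and 51 of 54 falls were larger in Mettl3 KO.

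Among the genes that rose, members of the interferon-gamma response led. Of the 25 genes on that list, all tested, 21 rose and 0 fell, and the median log2 fold change was 2.08 (Mettl3 KO 1.96, Mettl14 KO 2.23). Over all genes tested 0.354% were called higher and 0.22% lower, with a median of 0.05. These shares also stand beside the counts of the lists below. Summed over the interferon-gamma list, controls held 709.5 to 1507 CPM, Mettl3 KO tumors 3094 to 4588 CPM and Mettl14 KO tumors 1362 to 7227 CPM. Mettl14 KO replicate 5, at 1362 CPM, was the only knockout library within the control range. The list was written with earlier results of these data known, so its count is no independent evidence of a direction.

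The ligand itself was not called. Ifng, which encodes interferon-gamma, stood at 1.95, 0.678, 1.09, 0.607 and 0.101 CPM in controls, 5.29, 1.01, 2.39, 4.76 and 1.10 CPM in Mettl3 KO and 2.12, 2.62, 0.929, 5.83 and 0.711 CPM in Mettl14 KO tumors. The groups overlapped, with a log2 change of 1.66 (SE 0.65, adjusted p = 0.19). Irf1, a transcription factor induced early by interferon-gamma, was at 41.5, 52.8, 91.5, 109 and 62.3 CPM in controls. It was at 221, 176, 155, 148 and 169 CPM in Mettl3 KO and 319.9, 219, 131, 398 and 85.2 CPM in Mettl14 KO tumors. All Mettl3 KO libraries exceeded the highest control, Mettl14 KO replicate 5 did not, and the log2 change was 1.48 (SE 0.32, adjusted p = 0.0478). The call held in 5 of 15 fits that each left out 1 library. Stat2, a partner of the interferon-activated transcription factor complex, rose by 1.21 ± 0.23 (here and after other genes, the log2 change of the mean effect ± SE) and overlapped the controls in Mettl14 KO replicate 5 alone.

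Ciita, the master regulator of MHC class II genes, was at 13.1, 5.03, 12.9, 11.8 and 3.12 CPM in controls. In the 10 knockout tumors it lay between 12.2 and 124 CPM (median 63.3), with the lowest value in Mettl14 KO replicate 5 and the next lowest, 19.5 CPM, above every control. Its log2 change was 2.80 (SE 0.52, adjusted p = 0.0279) (Mettl3 KO 2.82, Mettl14 KO 2.78).

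The guanylate-binding proteins, interferon-induced GTPases that attack the membranes of intracellular microbes, rose together from 2 gene clusters, on chromosomes 3 and 5. Gbp2b was at 119.7, 155, 179, 226 and 69.997 CPM in controls, 979, 542, 612, 862 and 756 CPM in Mettl3 KO and 966, 989, 569.6, 1504 and 248 CPM in Mettl14 KO tumors. No knockout library overlapped the controls, and the lowest, Mettl14 KO replicate 5, was close to the highest control. The mean rose from 149.9 ± 59.2 CPM (n = 5) to 803 ± 343 CPM (n = 10), with a log2 change of 2.42 (SE 0.37, adjusted p = 0.0166). Gbp4 (2.45 ± 0.40), Gbp6 (2.51 ± 0.40), Gbp10 (2.63 ± 0.46), Gbp5 (1.96 ± 0.31) and Gbp7 (1.81 ± 0.29) rose as well. Since members of this family are near-identical in places, reads may be split between them, and single values are uncertain.

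Apol6, an apolipoprotein L family member (chr15:77044729-77057106, mm10), showed the largest rise of the 87. It was at 9.08, 2.71, 4.92, 7.73 and 2.22 CPM in controls, 41.1, 33.8, 30.7, 45.7 and 45.1 CPM in Mettl3 KO and 68.6, 43.4, 21.4, 65.1 and 12.2 CPM in Mettl14 KO tumors, with no overlap. Its log2 change was 2.96 (SE 0.43, adjusted p = 0.0166). Ubd, a ubiquitin-like modifier also called FAT10, was at 3.89, 2.03, 3.67, 3.48 and 1.31 CPM in controls, 41.1, 11.96, 15.6, 22.1 and 23.5 CPM in Mettl3 KO and 20.1, 20.6, 9.95, 39.2 and 3.96 CPM in Mettl14 KO tumors. Mettl14 KO replicate 5 was just above the highest control, and the log2 change was 2.87 (SE 0.48, adjusted p = 0.0166). Tgtp1, of the immunity-related GTPase family, went from 3.08, 6.29, 8.60, 10.0 and 2.42 CPM in controls to between 10.4 and 63.5 CPM (median 32.5) in the 10 knockout tumors, without overlap. Its log2 change was 2.40 (SE 0.42, adjusted p = 0.0224), and its close copy Tgtp2 may share its reads. Iigp1, of the same family, rose by 2.29 ± 0.35. Leaving out 1 library at a time, Apol6, Ubd, Gbp2b, Gbp4, Gbp6, Tgtp1 and Iigp1 each kept their call in 14 of 15 fits. The exception was the fit without control replicate 2, where the log2 fold changes of Apol6, Ubd and Gbp2b were 2.80, 2.77 and 2.42 with adjusted p = 0.0836, 0.0845 and 0.0836.

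Ido1, which degrades tryptophan, was at 4.22, 1.26, 1.42, 2.097 and 0.705 CPM in controls and between 3.76 and 24.4 CPM (median 8.22) in the knockouts, with a log2 change of 2.52 (SE 0.53, adjusted p = 0.0402). Control replicate 1 overlapped the lowest knockout library. Acod1, which makes itaconate in activated macrophages, was at 4.38, 4.74, 4.59, 8.17 and 2.97 CPM in controls and between 8.94 and 97.0 CPM (median 26.3) in the knockouts, without overlap, with a log2 change of 2.70 (SE 0.55, adjusted p = 0.0378). Of the 15 fits that each left out 1 library, Ciita kept its call in 9, Acod1 in 7 and Ido1 in 5.

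**Figure D2:**
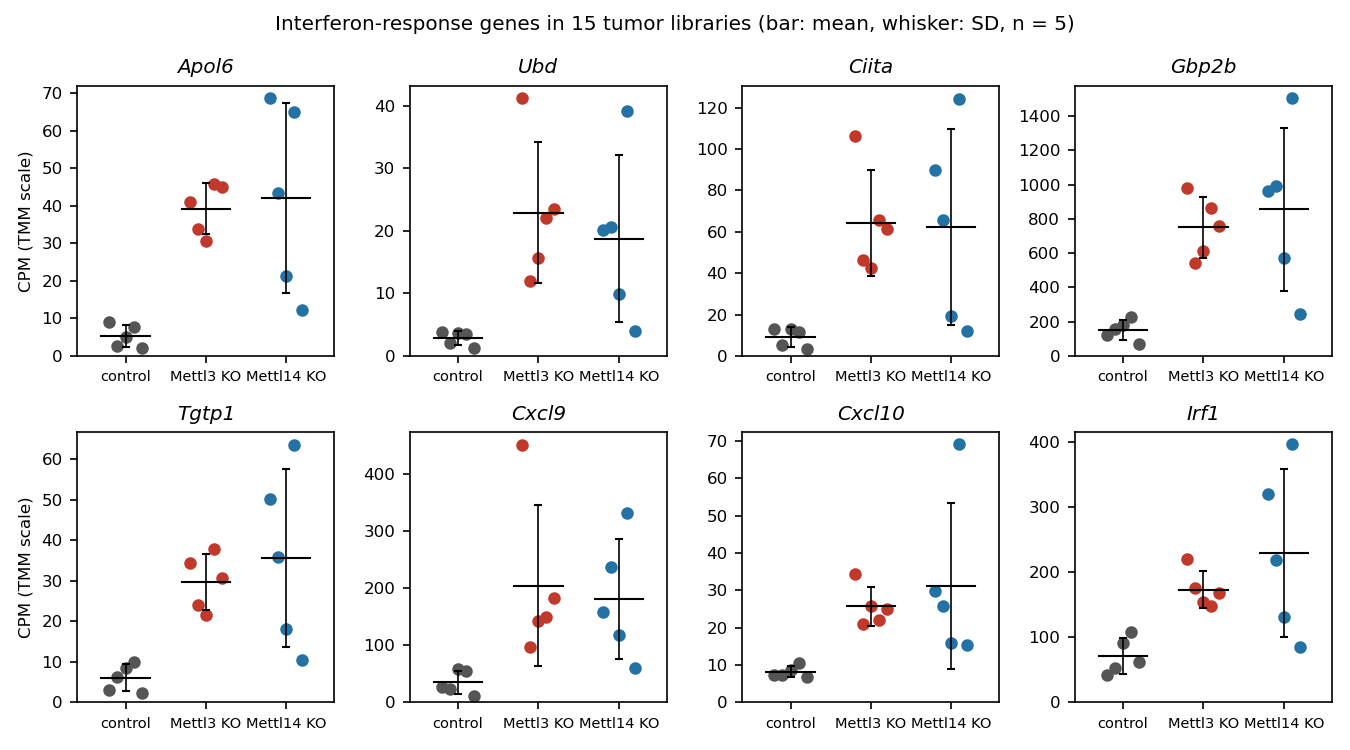
CPM on the TMM scale (y axes, each from 0) of 8 interferon-response genes in the 15 tumors by group; points are libraries, bars means and whiskers SD (n = 5). Knockout points lie above all controls for Apol6, Ubd, Gbp2b, Tgtp1, Cxcl9 and Cxcl10, whereas the lowest Mettl14 KO library overlaps the controls for Ciita and Irf1.

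The chemokines that bind Cxcr3 on activated T cells rose, and they are neighbours on chromosome 5. Cxcl9 was at 27.9, 23.5, 58.3, 54.5 and 10.6 CPM in controls, 451, 97.9, 143, 149 and 183 CPM in Mettl3 KO and 159, 237, 118, 332 and 60.7 CPM in Mettl14 KO tumors. The lowest knockout library was just above the highest control, and the log2 change was 2.46 (SE 0.49, adjusted p = 0.0349). Cxcl10 was at 7.46, 7.45, 8.60, 10.6 and 6.85 CPM in controls, 34.5, 21.1, 25.7, 22.1 and 25.1 CPM in Mettl3 KO and 29.9, 25.8, 15.8, 69.1 and 15.3 CPM in Mettl14 KO tumors. The groups did not overlap, and Cxcl10 had a log2 change of 1.78 (SE 0.31, adjusted p = 0.0223). Cxcl11 rose by 1.55 ± 0.32, from 2.94 ± 0.919 CPM in controls to 8.51 ± 3.46 CPM in knockouts, overlapping at Mettl3 KO replicate 2. Of 22 chemokines and cytokines tested these 3 rose and 0 fell, and the list's median log2 fold change was 1.52. An unadjusted p under 0.05 by edgeR was reached by 18 of the 22, beside 19.3% of all genes tested. Cxcl10 kept its call in 13 of the 15 fits without 1 library, Cxcl9 in 7 and Cxcl11 in 4.

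Antigen presentation gave fewer calls. Of 9 MHC class II presentation genes tested, Ciita and H2-DMb2 rose (2.07 ± 0.42 for the latter, a chaperone subunit that loads peptides), and the median over the 9 was 2.72. H2-DMb1, another chain of that chaperone, had a log2 change of 2.72 (SE 0.62, adjusted p = 0.0598), and its partner H2-DMa had a log2 change of 1.83 (SE 0.46, adjusted p = 0.0781). Of 18 MHC class I presentation genes tested 0 were called by edgeR, 13 had an unadjusted p under 0.05, and the median was 0.95. Psmb9, an immunoproteasome subunit, had a log2 change of 1.32 (SE 0.32, adjusted p = 0.0713). Among 12 checkpoint and exhaustion genes, Cd274 and Btla rose and 0 fell, with a median of 1.14. Cd274 encodes PD-L1, the ligand of the receptor that the treatment blocks. It was at 26.9, 23.6, 29.5, 43.7 and 25.6 CPM in controls, 145, 54.3, 80.3, 106 and 63.0 CPM in Mettl3 KO and 149.8, 139, 54.1, 218 and 39.7 CPM in Mettl14 KO tumors. Only Mettl14 KO replicate 5 fell within the control range, and the log2 change was 1.79 (SE 0.36, adjusted p = 0.0377). Btla, an inhibitory receptor of lymphocytes, rose by 1.96 ± 0.39 without overlap. Both kept their call in 7 of the 15 fits without 1 library.

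Across the lists of immune cell markers 1 gene was called, and the shift differed between cell types. At an unadjusted p under 0.05, the counts given here stand beside 19.3% of all genes tested. Of 17 T cell markers tested 0 were called by edgeR, all 17 had an unadjusted p under 0.05 and a positive fold change, and the median was 1.51. Their summed level was 26.5 to 84.0 CPM in controls, 95.1 to 301.5 CPM in Mettl3 KO and 55.05 to 470.1 CPM in Mettl14 KO tumors, so that only Mettl14 KO replicates 3 and 5 overlapped the controls. Mettl14 KO replicate 4 and Mettl3 KO replicate 1, the 2 libraries richest in T cell markers, were also the 2 highest for macrophage markers (5180 and 3803 CPM). The other 8 knockout libraries held 1339 to 2605 CPM of macrophage markers, 1 of them above the control range of 1422 to 2493 CPM, and the median was 1982.5 CPM over the 10 knockouts and 2298 CPM in controls. Cytotoxic lymphocyte markers gave 1 call in 16, the activating receptor Klrk1, which rose by 1.94 ± 0.41. The median over the 16 was 1.00, with 14 log2 fold changes above 0 and 11 at an unadjusted p under 0.05. The summed level of these markers, however, had a median of 185 CPM in the knockouts and 188 CPM in controls. B and plasma cell markers (median 1.78, 0 of 12 called, 8 at an unadjusted p under 0.05) and dendritic cell markers (median 1.10, 0 of 12, 8) followed. Macrophage markers had a median of 0.29 with 0 of 17 called and 5 at an unadjusted p under 0.05. In whole tumors, more cells of a type and more RNA per cell cannot be told apart. The part of immune cell content in the interferon-related rises was not tested.

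Beyond the interferon-gamma list, 4 of 26 type I interferon response genes rose and 0 fell, with a median of 0.81. They were Zbp1, a sensor of Z-form nucleic acids (1.90 ± 0.31), Oasl2 (1.26 ± 0.24), Stat2 and Xaf1 (1.13 ± 0.25). All 26 had a positive fold change, and 22 had an unadjusted p under 0.05 by edgeR, beside 19.3% of all genes tested. Oasl2 was at 41.0, 65.0, 52.3, 78.8 and 54.2 CPM in controls and between 71.2 and 256 CPM (median 120.0) in the knockouts, and only Mettl14 KO replicate 5 overlapped. Atf3, a stress-induced transcription factor on the unfolded protein response and immediate early lists, was at 4.87, 3.19, 3.42, 3.97 and 3.83 CPM in controls and between 6.49 and 22.4 CPM (median 10.4) in the knockouts. It did not overlap and had a log2 change of 1.55 (SE 0.29, adjusted p = 0.027). It was the only called riser of the 16 unfolded protein response genes, where Dnajb9, an endoplasmic reticulum chaperone, fell.

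Several other genes that rose are chosen here after their values were seen. They include the nucleic acid receptor Tlr9 (1.63), the leukocyte integrin Itgal (1.40), the follistatin gene Fst (1.06), which encodes an activin antagonist, the glycolytic regulator Pfkfb3 (1.29) and the amino acid transporter Slc7a8 (0.89), all as log2 fold changes of the mean effect. Slc7a8 was the only gene of the 87 whose difference between the knockouts had an unadjusted p under 0.05.

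The risers were clustered along the genome. In 7 stretches where neighbouring called genes lay within 500 kb of each other, at least 3 genes per stretch, lay 33 of the 87, and the genes that fell formed 0 such stretches. On chromosome 3, 5 of 6 tested genes between 142493978 and 142638008 rose (Gbp5, Gbp7, Gbp3, Gbp2b, Gbp2). On chromosome 5, 6 of 6 between 105014150 and 105346472 rose (Gbp8, Gbp9, Gbp4, Gbp10, Gbp6, Gbp11), and 4 of 6 between 92257659 and 92365485 (Naaa, Cxcl9, Cxcl10, Cxcl11). Immunity-related GTPase genes and their neighbours made up 2 stretches on chromosome 11 with 5 of 11 and 3 of 3 tested genes higher, and 1 on chromosome 18 with 6 of 6, including Iigp1. Apolipoprotein L genes formed the last, on chromosome 15, with 4 of 17. Over all genes 0.354% were called higher. Each stretch was drawn from its first to its last called gene, so its share is raised by that choice and cannot be weighed against 0.354%. How many stretches would arise without clustering was not tested. Neighbours of these families resemble each other in sequence, so they are not independent observations.

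Promoter sequences of these genes were compared next. Of the 87, 55 had a promoter in the RefSeq table (GRCm38.p6, 250 bases before to 50 after the start). A script searched both strands for the gamma-activated site GAS, TTCNNNGAA, bound by interferon-gamma-activated factors, and for the core of the interferon-stimulated response element ISRE, which reads GAAA, any 2 bases and GAAA, bound by Irf family factors. Of the 55 genes 14 (25.5%) held GAS and 21 (38.2%) the ISRE core, against 9.55% and 3.99% of the 27025 genes in the table and 8.67% and 3.87% of the genes tested. Either motif was present in 27 (49.1%), against 12.9% of all genes in the table. The motifs shared bases in 23 promoters of the whole table. Several of these promoters belong to gene copies with alike sequence, such as Tgtp1, Tgtp2, Gm12185 and Irgm2, or Apol9a and Apol9b. Such promoters are not independent observations, and the shares count each copy. These are letter matches, not measured binding.

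The 250 bases before the start are printed 5′ to 3′ on the gene's strand for 5 risers that differ in motif content, with matches in capitals. Irf1 (chr11:53769764-53770013, plus strand) holds GAS at position -90 (the match's first base, with negative positions before the start), and Gbp7 (chr3:142530086-142530335, plus) holds GAS at -106 and -87 and the ISRE core at -53. Tgtp1 (chr11:48992247-48992496, minus) holds GAS at -88 and the ISRE core at -77, Gbp2 (chr3:142620413-142620662, plus) the ISRE core at -59 and Cxcl10 (chr5:92348890-92349139, minus) at -213. A second Irf1 start in the table has no match.
Irf1: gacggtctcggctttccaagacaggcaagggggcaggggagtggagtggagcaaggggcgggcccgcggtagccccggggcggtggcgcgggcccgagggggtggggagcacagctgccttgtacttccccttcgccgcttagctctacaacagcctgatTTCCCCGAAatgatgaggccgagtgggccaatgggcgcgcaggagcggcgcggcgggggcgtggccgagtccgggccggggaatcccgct
Gbp7: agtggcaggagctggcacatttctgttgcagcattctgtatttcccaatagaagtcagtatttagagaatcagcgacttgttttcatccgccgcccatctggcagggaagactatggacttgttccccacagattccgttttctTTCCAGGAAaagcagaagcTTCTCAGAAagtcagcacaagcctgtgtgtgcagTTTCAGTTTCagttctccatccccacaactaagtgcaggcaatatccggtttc
Tgtp1: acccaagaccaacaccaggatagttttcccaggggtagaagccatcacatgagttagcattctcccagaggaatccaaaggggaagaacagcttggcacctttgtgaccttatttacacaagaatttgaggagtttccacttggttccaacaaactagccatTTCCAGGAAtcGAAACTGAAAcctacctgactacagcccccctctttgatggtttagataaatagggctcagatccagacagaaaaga
Gbp2: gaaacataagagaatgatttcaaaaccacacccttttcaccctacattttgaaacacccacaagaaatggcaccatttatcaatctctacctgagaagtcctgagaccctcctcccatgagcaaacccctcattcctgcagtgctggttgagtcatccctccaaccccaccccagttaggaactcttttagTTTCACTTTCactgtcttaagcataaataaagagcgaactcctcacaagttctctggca
Cxcl10: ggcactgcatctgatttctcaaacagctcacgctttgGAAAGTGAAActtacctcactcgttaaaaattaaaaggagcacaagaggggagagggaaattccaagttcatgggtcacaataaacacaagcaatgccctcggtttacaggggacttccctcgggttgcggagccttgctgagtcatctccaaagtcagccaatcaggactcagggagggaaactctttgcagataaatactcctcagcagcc
In Irf1, Gbp7, Tgtp1 and Gbp2 all matches lie at or after -106, and in Cxcl10 the match lies further away. No match was present in the windows of Ubd, Cd274 and Cxcl9, which says only that these letters are not there.

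**Figure D3:**
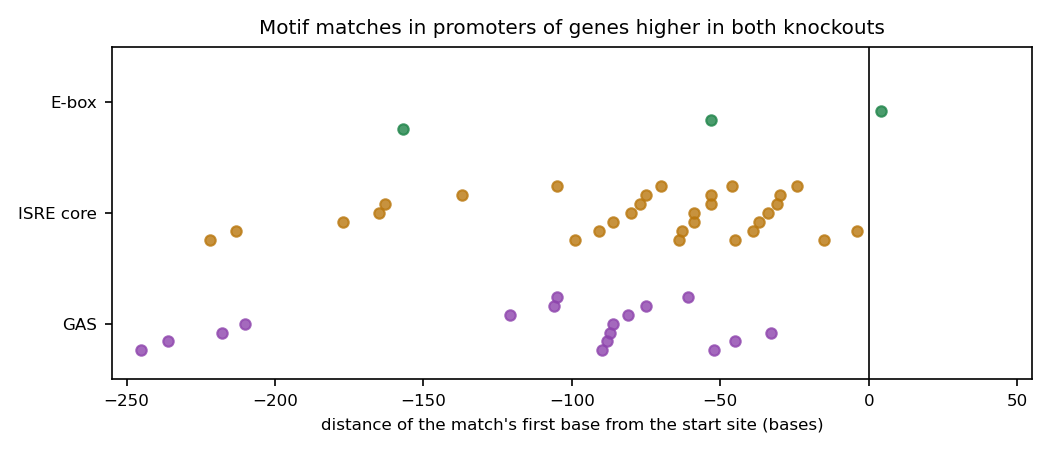
Distance of each motif match's first base from the start site (x axis, bases; negative is upstream) in the promoters of genes called higher, by motif (y axis); points are matches, spread vertically for display. ISRE core and GAS matches crowd in the part of the window nearest the start, and 3 E-box matches are present. Several start sites of a gene, overlapping matches and gene copies repeat the same site, as for Apol9a, Apol9b and Serpina3f, so points are not independent.

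The genes that fell were more mixed. Globin genes were lower in both knockouts. Of 6 erythroid markers tested 3 were called lower, all of them globins, and 0 higher, where 0.22% of all genes were called lower. The median over the 6 was -1.87 (Mettl3 KO -1.92, Mettl14 KO -1.82), and 1 of the 6 had a log2 change above 0. Hbb-bs, an adult beta globin (chr7:103826534-103828096, mm10), was at 31.5, 132, 48.3, 62.5 and 174 CPM in controls. It was at 17.0, 27.1, 10.7, 7.05 and 14.8 CPM in Mettl3 KO and 28.2, 17.1, 29.7, 17.7 and 11.0 CPM in Mettl14 KO tumors. All 10 knockout libraries were below the lowest control, and the log2 change was -2.33 (SE 0.36, adjusted p = 0.0166). Hba-a1, an alpha globin, was at 10.5, 29.9, 13.3, 16.6 and 50.2 CPM in controls and between 3.62 and 10.4 CPM (median 4.97) in the knockouts, just below the lowest control, with a log2 change of -2.01 (SE 0.33, adjusted p = 0.0166). Hbb-bt fell by 2.48 ± 0.46 with overlap. Hbb-bs and Hba-a1 kept their call in 14 of the 15 fits without 1 library. The globin genes have near-identical copies, and their reads may be split. Summed over the list, controls held 72.3 to 302.1 CPM and knockouts 31.7 to 65.1 CPM. Blood content of the tumors was not measured separately, and its part was not tested.

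Dhrs9, a dehydrogenase that acts on retinoids and steroids (chr2:69380445-69404533, mm10), was at 76.9, 159, 80.3, 93.9 and 158 CPM in controls, 11.3, 20.7, 19.7, 26.1 and 22.3 CPM in Mettl3 KO and 37.5, 23.2, 43.8, 19.4 and 88.6 CPM in Mettl14 KO tumors. All knockout libraries except Mettl14 KO replicate 5 lay below the controls, and the log2 change was -1.96 (SE 0.30, adjusted p = 0.0166) (Mettl3 KO -2.50, Mettl14 KO -1.42). Krt20, an intestinal epithelial keratin, was at 157, 214, 192, 169 and 204 CPM in controls, 39.5, 49.4, 29.6, 72.4 and 97.4 CPM in Mettl3 KO and 136, 89.9, 81.4, 64.8 and 145 CPM in Mettl14 KO tumors. The groups did not overlap, with a log2 change of -1.28 (SE 0.24, adjusted p = 0.027). It was the 1 gene called of 12 epithelial markers, whose median was 0.35. Car6, a secreted carbonic anhydrase, fell by 1.79 ± 0.37, and Aspn, a small proteoglycan of the matrix, by 1.49 ± 0.29. Aspn was at 39.6, 111, 146, 40.0 and 61.0 CPM in controls and between 13.5 and 41.1 CPM (median 27.1) in the knockouts, and the lowest controls, replicates 1 and 4, overlapped. The bone morphogenetic protein antagonist Grem1 (-0.93) and the transcription factor Klf9 (-0.78), both named after their values were seen, also fell.

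Among 18 circadian clock genes, 2 repressors of the clock fell, 0 rose, and the median was -0.38, where 0.22% of all genes were called lower. Per2 was at 27.4, 48.2, 57.7, 46.9 and 47.2 CPM in controls, 12.4, 18.4, 17.1, 15.8 and 11.1 CPM in Mettl3 KO and 34.0, 26.9, 35.0, 30.9 and 16.4 CPM in Mettl14 KO tumors. Mettl3 KO tumors were all below the controls, Mettl14 KO tumors overlapped control replicate 1, and Per2 had a log2 change of -1.14 (SE 0.19, adjusted p = 0.0166) (Mettl3 KO -1.60, Mettl14 KO -0.67). Cry1 was at 8.27, 20.6, 23.8, 14.8 and 16.7 CPM in controls and between 5.64 and 11.1 CPM (median 8.40) in the knockouts, overlapping at control replicate 1, with a log2 change of -1.03 (SE 0.18, adjusted p = 0.026). Per2 kept its call in 13 and Cry1 in 11 of the 15 fits without 1 library. The time of day of collection is not given in the labels. The E-box CACGTG, the element bound by the clock activators, occurred in 4 (18.2%) of the 22 genes that fell and had a promoter in the table, against 8.09% of all genes in the table and 10.0% of the genes tested. Cry1 was 1 of them. The others were Car6, Dnajb9 and Megf9, which are not on the clock list, and Per2 was not among the 22. The Cry1 promoter (chr10:85185055-85185304, minus strand) is shown with the E-box, at -60, in capitals.
Cry1: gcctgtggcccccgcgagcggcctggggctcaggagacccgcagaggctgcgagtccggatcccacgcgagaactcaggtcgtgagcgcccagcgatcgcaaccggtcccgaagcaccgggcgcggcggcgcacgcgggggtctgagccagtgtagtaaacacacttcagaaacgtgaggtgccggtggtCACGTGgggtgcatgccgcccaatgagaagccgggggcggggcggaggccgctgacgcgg
The match is a description and no sign of binding, and 4 genes are few.

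**Figure D4:**
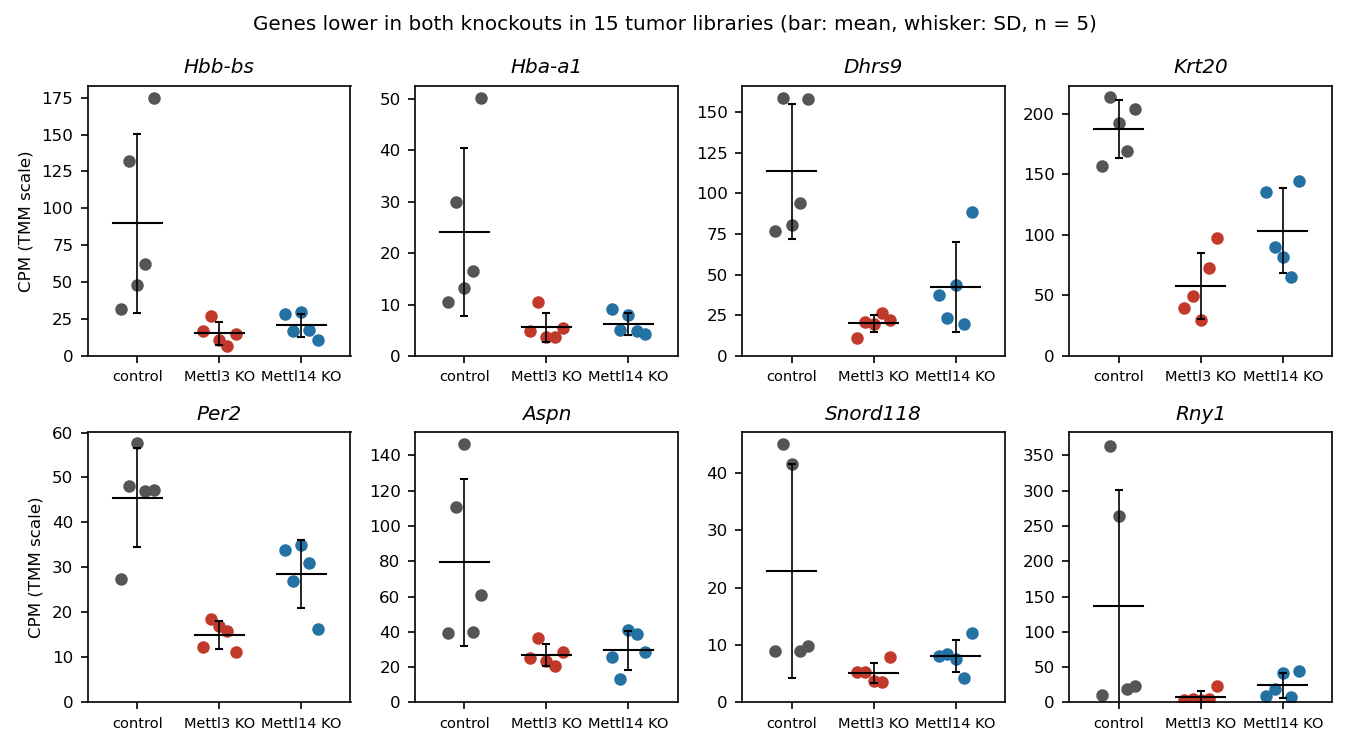
CPM on the TMM scale (y axes, each from 0) of 8 genes that fell in the 15 tumors by group; points are libraries, bars means and whiskers SD (n = 5). Hbb-bs, Hba-a1 and Krt20 do not overlap between knockouts and controls, whereas for Rny1 and Snord118 control replicates 2 and 3 lie far above the other 3 controls.

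Short non-coding RNAs were also among the genes that fell. Of 77 small nucleolar RNAs tested 9 fell (11.7%) and 0 rose, with a median of -1.06. Of 29 small nuclear RNAs 4 fell (13.8%) and 0 rose, with a median of -1.22. Over all genes tested 0.22% were called lower, and protein-coding genes had a median of -0.03. Snord118, also called U8, takes part in ribosomal RNA processing. It was at 8.92, 44.9, 41.6, 8.996 and 9.77 CPM in controls, 5.29, 5.27, 3.68, 3.62 and 7.84 CPM in Mettl3 KO and 8.01, 8.43, 7.56, 4.18 and 12.1 CPM in Mettl14 KO tumors. Controls 2 and 3 stood far above the other 3, which overlapped the knockouts, and the log2 change was -1.82 (SE 0.38, adjusted p = 0.04), a call kept in 4 of the 15 fits without 1 library. Rny1, the Y1 RNA that binds the Ro60 protein, had the largest fall of the 54, from 10.9, 363, 264, 19.5 and 23.7 CPM in controls to 3.22, 4.36, 2.76, 4.95 and 23.3 CPM in Mettl3 KO and 9.01, 18.8, 41.4, 8.20 and 45.2 CPM in Mettl14 KO tumors. Again controls 2 and 3 were high and the rest overlapped, with a log2 change of -3.29 (SE 0.72, adjusted p = 0.0499), and its call held in 4 of 15 fits that left out 1 library.

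Snora57 differed in a different library: it was at 4.87, 21.1, 21.6, 19.3 and 17.1 CPM in controls, with control replicate 1 within the knockout range of between 1.91 and 14.0 CPM (median 5.14), and had a log2 change of -1.58 (SE 0.31, adjusted p = 0.0349). Snord15a fell by 1.85 ± 0.37. The mitochondrial ribosomal RNA mt-Rnr1 fell by 1.66 ± 0.33, with -2.51 in Mettl3 KO and -0.81 in Mettl14 KO, although the difference between the knockouts did not pass (adjusted p = 0.325). Summed small nuclear and nucleolar RNA held 1613 ± 316 reads per M gene reads in the knockouts and 2764 ± 1063 in controls (SD, n = 10 and 5; exact permutation test over 3003 regroupings, two-sided p = 0.00266, adjusted over 5 library measures 0.0133). The mitochondrial share was 3.04% in the knockouts and 5.53% in controls (same exact test, p = 0.0160, adjusted 0.0400). Both sums contain the genes above and are no separate evidence. Their part in the falls of other genes was not tested.

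The sequences of 2 of these transcripts are shown as annotated in mm10: Rny1, which had the largest fall, and Snord118, a box C/D small nucleolar RNA. Rny1 (chr6:47788069-47788180, minus strand) is 112 bases long and Snord118 (chr11:69073427-69073561, plus) 135. Capitals mark box C and box D, the short motifs that define C/D small nucleolar RNAs.
Rny1: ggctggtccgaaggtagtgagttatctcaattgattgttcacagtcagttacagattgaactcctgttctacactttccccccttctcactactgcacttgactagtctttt
Snord118: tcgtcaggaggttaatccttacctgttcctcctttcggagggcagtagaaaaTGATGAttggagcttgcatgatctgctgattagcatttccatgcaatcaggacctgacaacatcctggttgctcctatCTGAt
Both boxes were found in Snord118.

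Other lists gave few calls, and their counts at an unadjusted p under 0.05 stand beside 19.3% of all genes. Ribosomal protein genes had a median of -0.63 with 0 of 20 called by edgeR and 17 at an unadjusted p under 0.05. The list of mitochondrially encoded genes, which does not hold the called mt-Rnr1, had -0.92 with 0 of 10 and 6. Cell cycle genes had -0.21 with 0 of 24 and 2, and nuclear oxidative phosphorylation genes -0.31 with 0 of 19 and 7. Dnajb9 fell by 0.90 ± 0.19, with -1.25 in Mettl3 KO and -0.55 in Mettl14 KO, and the difference did not pass (unadjusted p = 0.00776, adjusted 0.349). Skeletal muscle genes were the list on which the knockouts lay furthest apart: the median was 0.52 in Mettl3 KO and -2.74 in Mettl14 KO, and 0 of 14 were called for the mean effect, with 6 at an unadjusted p under 0.05. The Mettl3 KO libraries were uneven, with a summed level of 243.6 to 5005 CPM and a median of 593 CPM, below the control median of 1130 CPM (333.8 to 1552 CPM), and Mettl14 KO libraries held 67.04 to 279.6 CPM.

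**Figure D5:**
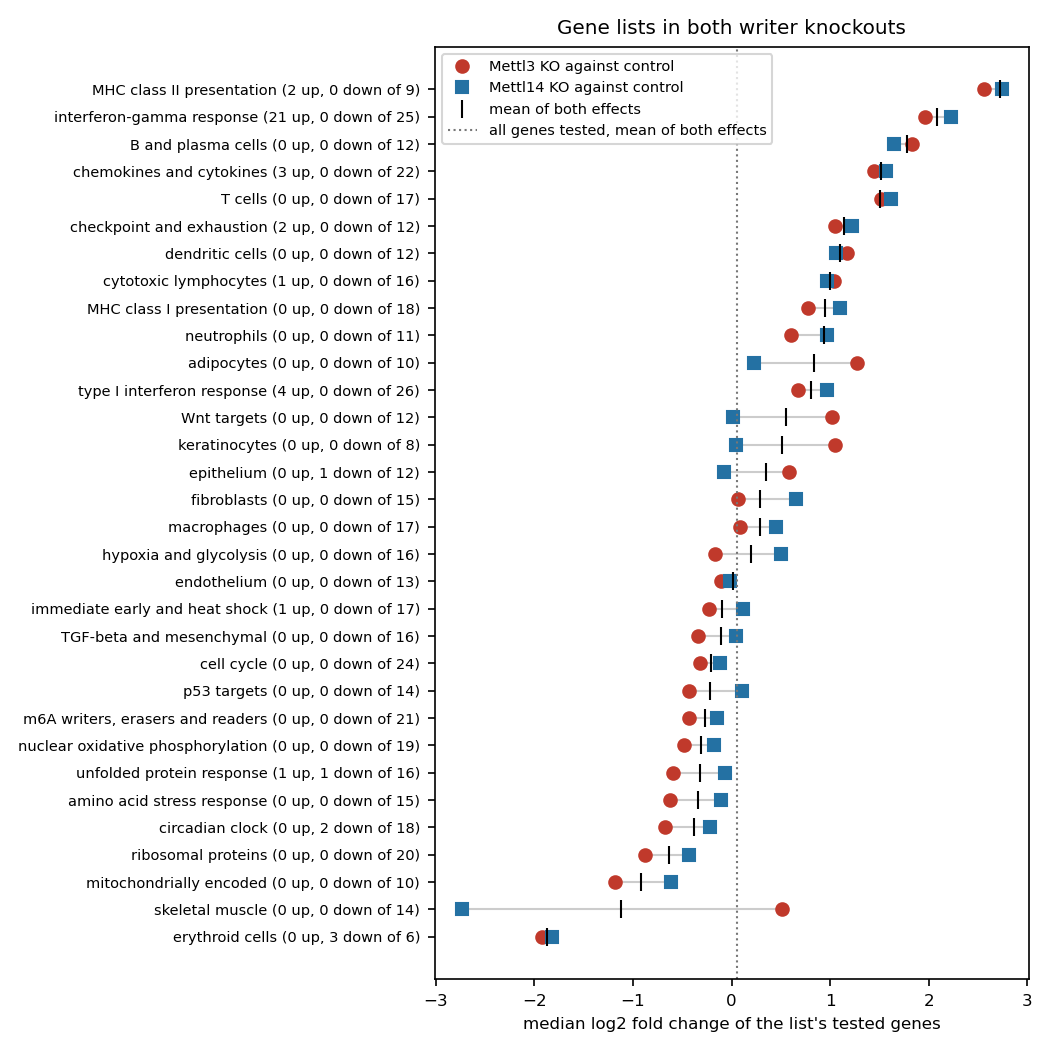
Median log2 fold change against control (x axis) of the tested genes of 32 lists (y axis) in Mettl3 KO (circles), Mettl14 KO (squares) and their mean (ticks); labels give members called higher and lower of those tested, and the dotted line the median of all genes. MHC class II and interferon-gamma response genes lie at the top, erythroid genes at the bottom, and skeletal muscle genes split by knockout.

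The last comparison set the knockouts against each other. With edgeR 0 of 24566 genes differed (0%), while 3152 (12.8%) had an unadjusted p under 0.05, DESeq2 called 68, voom 0 and voom with sample weights 6778. Among the called genes, the rise was larger in Mettl3 KO for 16 of 87 and the fall was larger in Mettl3 KO for 51 of 54; the 3 exceptions were Eya1, Fam171b and Gm42680. At an unadjusted p under 0.05 the knockouts differed in 1 of the 87 and 17 of the 54. The libraries of the knockouts differed too. Mettl3 KO libraries averaged 6.57 M gene reads, with 68.3% of reads outside genes and 1.95% mitochondrial reads. Mettl14 KO libraries averaged 10.6 M, 58.5% and 4.12%. The part of these library measures in the larger Mettl3 KO falls was not tested. Apol6 differed by -0.11 ± 0.41 and Gbp2b by -0.19 ± 0.38 between Mettl3 KO and Mettl14 KO, less than 1 standard error. Per2 differed by -0.93 ± 0.23 (unadjusted p = 0.000797, adjusted 0.349), Dhrs9 by -1.08 ± 0.37 (adjusted 0.349) and Krt20 by -0.84 ± 0.29 (adjusted 0.349). A p that misses the threshold does not show that the knockouts act alike. When a gene had to pass by the larger of its 2 p-values, adjusted anew over all genes tested, 0 genes passed in either direction. At an unadjusted p under 0.05 these were 765 higher and 576 lower. With each knockout adjusted on its own by edgeR, all 17 genes called higher in Mettl3 KO were also called higher in Mettl14 KO. Apol6, Gbp2b and Gbp5 were among these 17 (0.0692% of genes tested). Only Gm42680 was called lower in both. The 2 comparisons share their 5 controls, so they are not independent.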

How the data were processed

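RNA from 15 CT26 tumors was sequenced, 5 per group, with groups taken from the titles. The authors deposited raw counts of reads per gene, 1 table per knockout with the same 5 control columns, which were used once. Listed in the submitters' processing notes are cutadapt 1.18, the aligner HISAT2 2.1.0, the counter HTSeq 0.11.2 and the mm10 build. Annotation release and strand setting were not given in the sources used here, so overlapping or antisense genes cannot be told apart. Removal of ribosomal RNA and selection of poly(A) RNA both appear in the labels' protocols. Lines for reads on no gene or with ambiguous, repeated or failed alignment (56.8% to 86.2% of a library) were left out.

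Genes passing filterByExpr at a minimum count of 10 were fitted with edgeR 4.0.16 in R 4.3.3 (TMM scaling, robust quasi-likelihood test) in 1 model of 3 groups, with the mean of the 2 knockout effects against control as contrast. P-values were adjusted by Benjamini-Hochberg over all genes at a threshold of 0.05. The procedure was tested on simulated data. Alternatives were other scalings and filters, DESeq2 1.42.0, voom in limma 3.58.1, 1 knockout group of 10, a covariate, a replicate block and each library left out.

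The members, the 32 gene lists (489 of 501 genes tested) and the rule for named genes were chosen with earlier results of these data known. The rule took 6 genes by name, the 12 largest rises and 12 largest falls among called genes (by the smaller of the 2 knockout changes, with a mean of at least 1 CPM, no gene models, all 10 knockout libraries on 1 side of the control mean), up to 4 genes per list by p, and 4 by the difference between the knockouts. Some genes are not reported here. Positions came from GENCODE for mm10 (54723 of 54752 IDs matched). All 30 replicate pairs differed by more than sampling noise.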

Additional observations from a re-analysis of the deposited data

Results flagged for a closer look

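In 9 of 87 gene and group combinations examined, 1 of the 5 libraries lay far from the other 4 for its group's range (chance gives about 1 in 20). Mettl3 was at 16.3 CPM in Mettl3 KO replicate 2, against 12.5 to 13.6 CPM in the other 4, and Mettl14 was at 89.8 CPM in control replicate 2, against 61.5 to 67.8 CPM. Cxcl9 reached 451.3 CPM in Mettl3 KO replicate 1, against 97.9 to 183.3 CPM. In Mettl14 KO replicate 4, Cxcl10 reached 69.1 CPM, against 15.3 to 29.9 CPM, and Acod1 reached 96.98 CPM, against 8.94 to 34.1 CPM. Rny1 was at 23.3 CPM in Mettl3 KO replicate 5, against 2.76 to 4.95 CPM, and Hba-a1 at 10.4 CPM in Mettl3 KO replicate 2, against 3.62 to 5.51 CPM. At the low end, Snora21 was at 1.19 CPM in Mettl14 KO replicate 3, against 1.93 to 2.23 CPM. Snora57 was at 4.87 CPM in control replicate 1, against 17.1 to 21.6 CPM.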

How the results depend on the processing

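Main counts were 87 higher and 54 lower. They were 80 and 98 with DESeq2's size factors, 125 and 27 with library totals, 67 and 65 with no filter, 100 and 64 with a mean of at least 1 CPM, 578 and 1956 with DESeq2 (1955 with equal sign in both knockouts), 179 and 57 with voom, and 85 and 28 with 1 knockout group of 10. With voom sample weights they were 9071 and 5691 (9065 and 5663 with equal sign), and with reads outside genes as a covariate 54 and 16. Without 1 library at a time they ran from 0 to 8516 higher and from 0 to 4330 lower (4327 with equal sign). The lowest counts came without control replicate 2 and the highest without control replicate 1. They were 20 and 8 without control replicate 3, 40 and 27 without control replicate 5, 27 and 22, 34 and 28, 26 and 12, and 28 and 17 without Mettl3 KO replicates 1, 3, 4 and 5, and 27 and 9, 88 and 34, and 334 and 340 without Mettl14 KO replicates 2, 3 and 5. Chosen after seeing the data, leaving out the 3 libraries with over 70% outside genes gave 5695 and 3696 (3694 with equal sign). By the larger of the 2 p-values, adjusted anew over all genes tested, 0 and 0 passed. The cause of these shifts was not tested.

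Genes that differ between the knockouts numbered 0 in the main test, 68 with DESeq2, 6778 with voom sample weights, 0 to 1 without 1 library at a time (1 without Mettl3 KO replicate 2), 1 without the 3 libraries over 70%, and 0 elsewhere. Named genes changed direction in 0 of the alternatives; of 45 called ones, 10 stayed called with the covariate, 45 without control replicate 1 and 0 without control replicate 2. Equal replicate numbers did not pair the samples: 4 of 15 pairs of libraries correlated over 0.1 and 1 of 15 libraries correlated best with its own number. A replicate block gave 100 higher, 40 lower and 0 between the knockouts. Libraries held 4.35 to 20.98 M gene reads. Ifng had few reads and a wide error, and the part of read number in that error was not tested.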
